A study of Macaca fascicularis with 6 samples.

Results

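The cells described here are the KRT7-high barcodes of the corneal epithelium 3 days after corneal injury in the cynomolgus monkey (Macaca fascicularis). A barcode, which stands for 1 captured cell, was taken as KRT7-high when its gene table held 3 or more raw KRT7 counts. This gave 477 of 2164 day 3 barcodes (22.04%), 247 of 1096 in replicate 1 and 230 of 1068 in replicate 2, out of 7895 barcodes in the 6 libraries of the study. The KRT7-high barcodes of a library were summed and set against the sum of all other barcodes of the same library. KRT7 chose the barcodes, so its own values are given only as a description and it was left out of every table tested.

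All animals were wild type (WT), and the tissue was cornea. The day 3 group was labelled corneal injury at the healing stage on day 3, the day 1 group corneal injury 1 day before sampling, and the uninjured group had no injury, with 2 libraries in each. Cells were strained, captured on a 10x Genomics controller, and read by HIT-scISOseq, a method that sequences full-length cDNA of single cells. Neither the way the cornea was injured nor whether the replicates of a day came from different animals is given in the sources used here, so the tests measure the spread between these libraries, which may be technical.

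KRT7 is a keratin of simple, ductal and glandular epithelia, and on the ocular surface it is known from the conjunctiva rather than from the central cornea. The corneal epithelium proper is known by the keratin pair KRT3 and KRT12, and its basal cells by KRT5, KRT14 and, at the limbus where the stem cells lie, KRT15. When the cornea is wounded, neighbouring epithelial cells crawl over provisional matrix such as fibronectin, proliferate and then stratify again. Roles of genes given here are known from human and mouse.

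Library totals lay between 3733442 and 4928103 counts, and the KRT7-high sums held 1165428 and 1015273 counts in the day 3 libraries. The median total per barcode was 4541 and 4370.5 counts in KRT7-high barcodes, against 4403 and 4065 counts in the other barcodes, so a threshold on a raw count selected barcodes only slightly deeper than the rest at day 3. Scrublet called 4 of the 477 members doublets, and 8 barcode sequences occurred in more than 1 library, 2 of them among the members. The epithelial keratins KRT5 and KRT14 were abundant in the KRT7-high sums (9444 and 8990.3 CPM for KRT5, 15073 and 12158 CPM for KRT14). The pan-leukocyte gene PTPRC had 0 counts there, but only 1 and 10 counts in the larger sums of the other barcodes. Of 4 tested immune cell markers, CD68 and LYZ were called higher in KRT7-high barcodes and 0 lower (6.45% and 4.16% of all genes tested). CD68 had 19 and 27 counts in KRT7-high barcodes, against 32 and 17 in the others. KRT8, KRT13 and KRT18 were not analysed here, so no conjunctival identity is assigned, and the cells are called by their rule.

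The share of KRT7-high barcodes was 0% and 0.0706% in the uninjured libraries (0 of 1565 and 1 of 1417), 1.28% and 1.74% at day 1 (19 of 1482 and 22 of 1267), and 22.5% and 21.5% at day 3. Exact binomial 95% intervals, which cover counting error only, were 20.1 to 25.1% and 19.1 to 24.1% at day 3, and the upper limit for 0 of 1565 in uninjured replicate 1 was 0.235%; a floor of 3 counts of the total, a one-sided bound, allows a share of up to 0.192% there. The day 3 libraries lay within each other's interval, and both lay above every earlier library. After every barcode was thinned to 2000 counts, at least 1 KRT7 count remained in 1.22% and 1.33% of uninjured barcodes, 6.13% and 6.48% of day 1 barcodes, and 34.8% and 34.3% of day 3 barcodes. Among the day 3 barcodes of the 2 libraries, 67 and 68 had exactly 3 KRT7 counts and stood just inside the threshold, while 83 and 94 had 2 counts and stood just outside it. The members held 81.8% and 79.1% of all KRT7 counts of their library, with a median of 5 and 4 counts per barcode.

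At day 3, the KRT7-high barcodes had far less of the corneal keratins KRT3 and KRT12 than the other barcodes and more of KRT19, KRT15, KRT23, the water channel AQP5, fibronectin (FN1), the alarmins S100A8 and S100A9, and the retinaldehyde dehydrogenase ALDH1A3. Among 10877 genes tested with edgeR's quasi-likelihood test (library as a block, Benjamini-Hochberg adjusted p under 0.05), 702 were higher (6.45%) and 452 lower (4.16%) in KRT7-high barcodes, 10.6% in all. Of these 1154 genes, 1146 moved the same way in both libraries, which a call made from the same 2 libraries favours. The median change over all genes was -0.01 on the log2 scale. DESeq2 called 183 genes higher and 75 lower in the same comparison, 70.9% of them higher, against 60.8% with edgeR. Leaving out replicate 1 of day 3 left 268 genes, and leaving out replicate 2 left 260, since the day 3 change then rests on 1 library. Of 97 genes tested by name, 28 lost their call without replicate 1 and 27 without replicate 2. All 97 kept their direction in both, but the rule for named genes asked for the same direction in both libraries. For genes named by that rule, the direction without 1 day 3 library was therefore fixed in advance. In this fit edgeR gave genes of like abundance 1 common spread, so its p-values are far smaller than 2 libraries could give for a single gene. In such sums, fewer cells with a gene and less of it per cell cannot be told apart. The call was lost without either library for AREG, CLDN4, COL1A2, ELF3, FOXA1, IL6, JAG1, KRT14, KRT6A, PAX6, SOX15, SOX9, TGFBR3 and TP63. It was lost without replicate 1 for EREG, FST, ICAM1, KRT17, MMP9, MX2, S100A2, SLPI, VIM and WFDC2, and without replicate 2 for CYP26A1, DCN, KRT5, KRT78, LGALS3, MMP13, MUC20, MYL9 and PADI1. With DESeq2, many of these genes lost their call too, among them PAX6, SLPI, TP63, VIM and WFDC2. KRT16, KRT4, PLAAT2, S100P and TKT kept their call without either library but lost it with DESeq2. Other genes named as changed at day 3, among them ALDH1A1, ALDH3A2, CD68, COL6A3, DSP, GALNT5, ITGB4 and LYZ, were not followed through the alternatives. Their absence from these lists does not show that their calls held. All levels below are TMM-scaled CPM (counts scaled to a common library total) given as replicate 1 and replicate 2. Changes are log2 of KRT7-high over other barcodes with the standard error of the fit.

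KRT3, the corneal partner of KRT12, had 183 and 172 CPM in KRT7-high barcodes, against 2664 and 2500.0 CPM in the other barcodes of the same libraries. The change was -3.86 ± 0.12 (edgeR adjusted p = 8.87e-203), a level 14.5-fold lower. KRT12 had 1129 and 968 CPM in KRT7-high barcodes, against 12267 and 12248 CPM in the others (-3.55 ± 0.12, edgeR adjusted p = 1.95e-199). The groups stood far apart for both keratins, with little spread between libraries. The median KRT7-high barcode held 1 KRT12 count in each library, against 14 and 16.5 counts in the median other barcode. The tenth of members with the most KRT12 counts carried 79.4% and 83.2% of all KRT12 counts of the members, so most members were near 0 and a few were far above. Of 16 tested genes of the list for corneal epithelial differentiation, 10 were lower and 4 higher (background 4.16% and 6.45%), with a median of -0.50. Besides KRT3 and KRT12, the lower ones included KRT24, a keratin of the corneal suprabasal layers (1275 and 1491 CPM in KRT7-high barcodes, against 4935 and 3847 CPM in the others), the corneal crystallin ALDH3A1 (4911 and 3206 CPM in KRT7-high barcodes, against 8820.3 and 8499 CPM in the others), the pentose phosphate enzyme TKT (-1.01 ± 0.11) and PAX6, the master transcription factor of the eye (-0.53 ± 0.12). The 4 higher genes included ALDH1A3, AQP5 and the small heat shock protein CRYAB (1.18 ± 0.11, 0.78 without replicate 2).

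Among genes of conjunctival and simple epithelia, KRT19 and KRT4 were the 2 keratins of their list in the tables besides KRT7, and both were higher. KRT19, a keratin shared by conjunctiva, limbus and ducts, had 7594 and 7937 CPM in KRT7-high barcodes, against 2418 and 2304 CPM in the others (1.72 ± 0.11, edgeR adjusted p = 1.01e-56). The median KRT7-high barcode held 22 KRT19 counts in both libraries, against 0 in the median other barcode, so KRT19 rose across the members and not in a few of them. KRT4, a keratin of stratified mucosal epithelia, had 1137 and 1455 CPM in KRT7-high barcodes, against 690.2 and 831 CPM in the others (0.76 ± 0.11, edgeR adjusted p = 2.87e-11), and its median was 0 counts in both groups. With DESeq2 the KRT4 change did not pass (DESeq2 adjusted p = 0.0501). Of 8 tested genes for membrane mucins and their glycosylation, 4 were higher and 0 lower (background 6.45% and 4.16%), with a median of 0.78. The transmembrane mucin MUC1 had 318 and 303 CPM in KRT7-high barcodes, against 99.6 and 94.4 CPM in the others (1.68 ± 0.12). MUC20 (1.34 ± 0.16, but 0.77 without replicate 2), the mucin-initiating enzyme GALNT5 (1.89 ± 0.57) and LGALS3, the galectin that cross-links surface mucins (0.78 ± 0.10), were the other three. Of 8 tested goblet and secretory cell genes, 5 were higher and 0 lower, among them the whey acidic protein WFDC2 (1.25 ± 0.13, but 0.51 without replicate 1) and the siderophore-binding lipocalin LCN2 (2.66 ± 0.30). The higher genes LCN2 and SLPI are also counted among the alarmins below, and LYZ among the immune cell markers. The other 3 tested genes of the secretory list did not pass. PIGR, the immunoglobulin transporter of that list, had 24 counts in KRT7-high barcodes of replicate 1 and 0 in those of replicate 2, so its call rests on replicate 1.

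**Figure D1:**
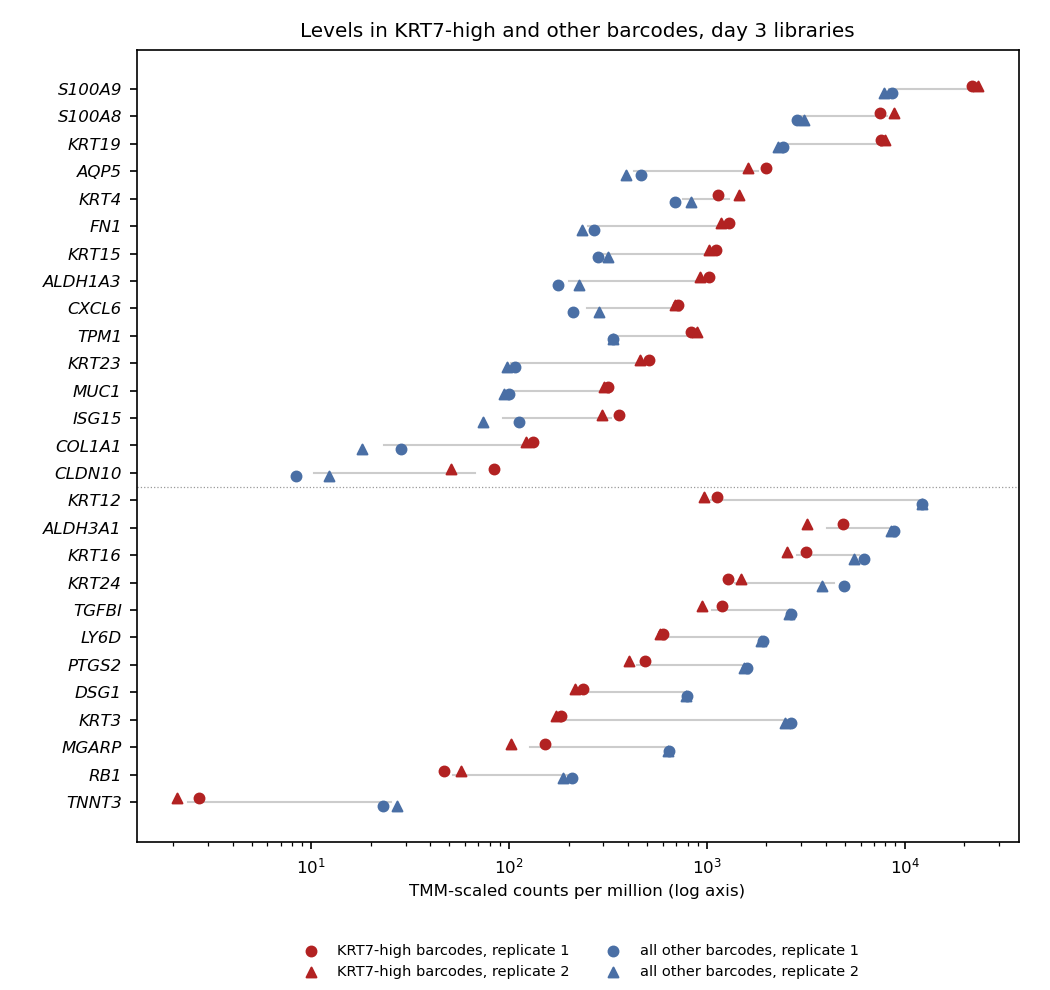
Levels of 27 genes in the day 3 libraries as TMM-scaled CPM on a log axis. Red marks are KRT7-high barcodes and blue marks all other barcodes, with circles for replicate 1, triangles for replicate 2 and a grey line joining the group means; for every gene drawn both red marks lie on the same side of both blue marks, higher above the dotted line and lower below it.

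Cell adhesion genes moved unevenly. Of 11 desmosome genes, which encode the spot junctions of stratified epithelia, 8 were lower and 1 higher (background 4.16% and 6.45%), with a median of -0.68. The desmosomal cadherin DSG1 had 237 and 215 CPM in KRT7-high barcodes, against 797 and 787 CPM in the others (-1.81 ± 0.12, edgeR adjusted p = 2.19e-50). DSC3 (-1.14 ± 0.12), the plaque protein PKP3 (-0.86 ± 0.12) and the plaque anchor DSP (-0.68 ± 0.10) were lower too. The 1 higher member was DSG2, the desmoglein of simple epithelia, with 70.3 and 87.5 CPM in KRT7-high barcodes, against 30.4 and 32.5 CPM in the others (1.32 ± 0.18). Of 12 tight junction genes, 3 claudins were higher and 1 was lower. CLDN10 had 83.8 and 51.1 CPM in KRT7-high barcodes, against 8.37 and 12.3 CPM in the others (2.71 ± 0.27), CLDN3 changed by 1.66 ± 0.22 and CLDN4 by 0.53 ± 0.11. CLDN1, the claudin of keratinocyte barriers, was lower (-0.90 ± 0.12).

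Genes of cell migration and extracellular matrix were mostly higher: 15 of 25 rose and 2 fell (background 6.45% and 4.16%), with a median of 0.73. FN1, the fibronectin on which wound epithelium migrates, had 1293 and 1174 CPM in KRT7-high barcodes, against 268 and 233 CPM in the others (2.30 ± 0.11, edgeR adjusted p = 4.46e-92). Tenascin C (TNC), a matrix protein of healing wounds, had 62.2 and 78.2 CPM in KRT7-high barcodes, against 15.9 and 12.9 CPM in the others (2.27 ± 0.24). The matrix metalloproteinases MMP9 (1.81 ± 0.27, but 0.77 without replicate 1, where edgeR's adjusted p was 0.900) and MMP13 (1.68 ± 0.30) and the intermediate filament protein vimentin (VIM, 0.69 ± 0.11) rose as well. TGFBI, an abundant corneal matrix protein, went the other way, with 1187 and 941 CPM in KRT7-high barcodes, against 2671 and 2592 CPM in the others (-1.31 ± 0.11). Of 13 actin cytoskeleton genes, 7 were higher and 1 lower; the higher ones included the tropomyosins TPM1 (1.36 ± 0.11) and TPM2 (1.72 ± 0.15) and the myosin light chain MYL9 (1.76 ± 0.29). Of 6 tested keratocyte and fibroblast markers, the collagen genes COL1A1 (132 and 122 CPM in KRT7-high barcodes, against 28.5 and 18.1 CPM in the others), COL1A2 and COL6A3 were higher and decorin (DCN) was lower (444 and 422 CPM in KRT7-high barcodes, against 691 and 699 CPM in the others). COL1A1 was counted in only 14.2% and 16.5% of members, and the tenth of members with the most carried 92.5% and 85.5% of its member counts. Among the deeper barcodes alone, COL1A1 changed by 0.70 and COL1A2 by 0.78, and neither passed (edgeR adjusted p = 0.513 and 0.443). Summed over the 10 markers of that list in the tables, the level was 1254 and 1078 CPM in KRT7-high barcodes, against 1236 and 1268 CPM in the others; the part of stromal RNA in these changes was not tested.

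Basal cell genes were split. Of 17 tested, 6 were higher and 3 lower (background 6.45% and 4.16%), with a median of 0.26. KRT15 had 1114 and 1028 CPM in KRT7-high barcodes, against 280.4 and 315 CPM in the others (1.85 ± 0.11, edgeR adjusted p = 1.82e-60). SOX9, a transcription factor of progenitor and ductal cells (1.05 ± 0.28), the calcium-binding protein S100A2 (0.70 ± 0.10) and the hemidesmosome integrin ITGB4 (0.33 ± 0.11) were also higher. The basal keratins KRT5 (-0.69 ± 0.10) and KRT14 (-0.55 ± 0.10) and their regulator TP63 (-0.41 ± 0.14) were lower, and TP63 lost its call in 8 of the 16 alternatives. Of 18 superficial and cornified envelope genes, 5 were higher and 6 lower. The kallikrein proteases KLK10 (1.72 ± 0.21, 1.09 without replicate 1) and KLK13 (1.72 ± 0.28) and the envelope precursor involucrin (IVL, 132 and 169 CPM in KRT7-high barcodes, against 42.1 and 59.1 CPM in the others) rose. The cross-linking enzyme TGM1 (-1.60 ± 0.27) and the surface protein LY6D (599 and 577 CPM in KRT7-high barcodes, against 1923 and 1882 CPM in the others) fell.

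Of 8 wound keratins and alarmins, 6 were higher and 2 lower, with a median of 0.99. The background for this and the next lists was 6.45% of all genes higher and 4.16% lower. S100A9 and S100A8, the subunits of calprotectin, had 22026 and 23636 CPM and 7511 and 8864 CPM in KRT7-high barcodes, against 8687 and 7912 CPM and 2858 and 3098 CPM in the others (1.46 ± 0.11 and 1.46 ± 0.10). The elastase inhibitor PI3 (1.06 ± 0.11), SLPI (0.91 ± 0.16) and the hair follicle and wound keratin KRT17 (0.61 ± 0.10, but 0.26 without replicate 1) rose. The hyperproliferation keratins KRT16 (3183 and 2548 CPM in KRT7-high barcodes, against 6211 and 5568 CPM in the others) and KRT6A (-0.55 ± 0.10) fell. Of 21 inflammatory genes, 9 were higher and 0 lower, among them the neutrophil chemoattractant CXCL6 (712 and 689 CPM in KRT7-high barcodes, against 210.1 and 285 CPM in the others, 1.52 ± 0.11), CCL20, which draws dendritic and T cells (2.16 ± 0.32), IL6 (1.93 ± 0.56, 1.22 without replicate 1 and 3.07 without replicate 2) and the leukocyte adhesion molecule ICAM1 (1.29 ± 0.23). Of 25 interferon response genes, 8 were higher and 0 lower, with a median of 0.42; the ubiquitin-like protein ISG15 had 360.4 and 294 CPM in KRT7-high barcodes, against 112 and 74.3 CPM in the others (1.82 ± 0.12), MX2 changed by 2.56 ± 0.40 and IFITM1 by 1.13 ± 0.12. Immune cell markers summed to 202 and 233 CPM in KRT7-high barcodes, against 177 and 136 CPM in the others, with 5 and 6 of the 11 markers at 0 in KRT7-high barcodes. Most of each sum was LYZ, a gene also on the secretory list. LYZ had 203 and 202 counts in KRT7-high barcodes, against 594 and 381 in the larger sums of the others. Relative to these totals, it rose mostly in replicate 2. The part of immune cells in these changes was not tested. The class II gene HLA-DRA passed the threshold, but had 47.7 and 1.04 CPM in KRT7-high barcodes, against 6.14 and 12.6 CPM in the others, opposite directions in the 2 libraries.

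Retinoic acid and aldehyde metabolism had 8 of 13 genes higher and 3 lower (background 6.45% and 4.16%), with a median of 0.96. ALDH1A3, which makes retinoic acid, had 1024 and 923 CPM in KRT7-high barcodes, against 177 and 226 CPM in the others (2.28 ± 0.11, edgeR adjusted p = 4.35e-87). The retinaldehyde reductase DHRS3 (1.31 ± 0.17) and CYP26A1, which degrades retinoic acid (1.30 ± 0.31), also rose. ALDH3A1, ALDH1A1 and ALDH3A2 were the lower ones. Among 23 epithelial transcription factors 5 were higher, including FOXA1 (1.13 ± 0.39) and PITX1 (1.05 ± 0.13), and 4 were lower, including PAX6 and SOX15 (-0.57 ± 0.15). FOXA1 rested on 18 and 12 counts in KRT7-high barcodes and lost its call in 6 of the 16 alternatives.

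Against a background of 6.45% of all genes higher and 4.16% lower, in the EGF family 2 of 9 genes rose and 0 fell, the ligands AREG (0.40 ± 0.11) and EREG (1.43 ± 0.36, but 0.62 without replicate 1). In Notch 3 of 13 rose, among them the ligand JAG1 (0.49 ± 0.13) and the target ELF3 (0.51 ± 0.11). In TGF-beta and BMP signalling 4 of 16 rose and 2 fell; the receptor TGFBR2 was higher (log2 change 1.503, SE 0.191), as was the activin antagonist FST (1.23 ± 0.20), while the co-receptor TGFBR3 was lower (-1.71 ± 0.47; it lost its call in 6 of the 16 alternatives). With edgeR and with DESeq2, 0 of 9 Wnt genes, 0 of 20 DNA replication genes, 0 of 18 mitosis genes and 0 of 18 ribosomal protein genes passed the threshold. At an unadjusted edgeR p under 0.05 the Wnt list had 2 and the DNA replication, mitosis and ribosomal protein lists 1 each. Over all 10877 genes tested, 2235 lay under that unadjusted p. A missed threshold does not show that these levels were alike. Lipid metabolism had 7 of 13 genes lower and 2 higher. The prostaglandin synthase PTGS2 had 485 and 402 CPM in KRT7-high barcodes, against 1593 and 1539.5 CPM in the others (-1.82 ± 0.11), and the phospholipase that feeds it, PLA2G4A, was lower as well (-1.50 ± 0.17). In ion and water transport 4 of 15 rose and 2 fell; AQP5 had 1999 and 1618 CPM in KRT7-high barcodes, against 467.3 and 391.5 CPM in the others (2.07 ± 0.11), and the sodium pump subunit ATP1B1 had 304 and 314 CPM in KRT7-high barcodes, against 118 and 114 CPM in the others (1.41 ± 0.12).

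**Figure D2:**
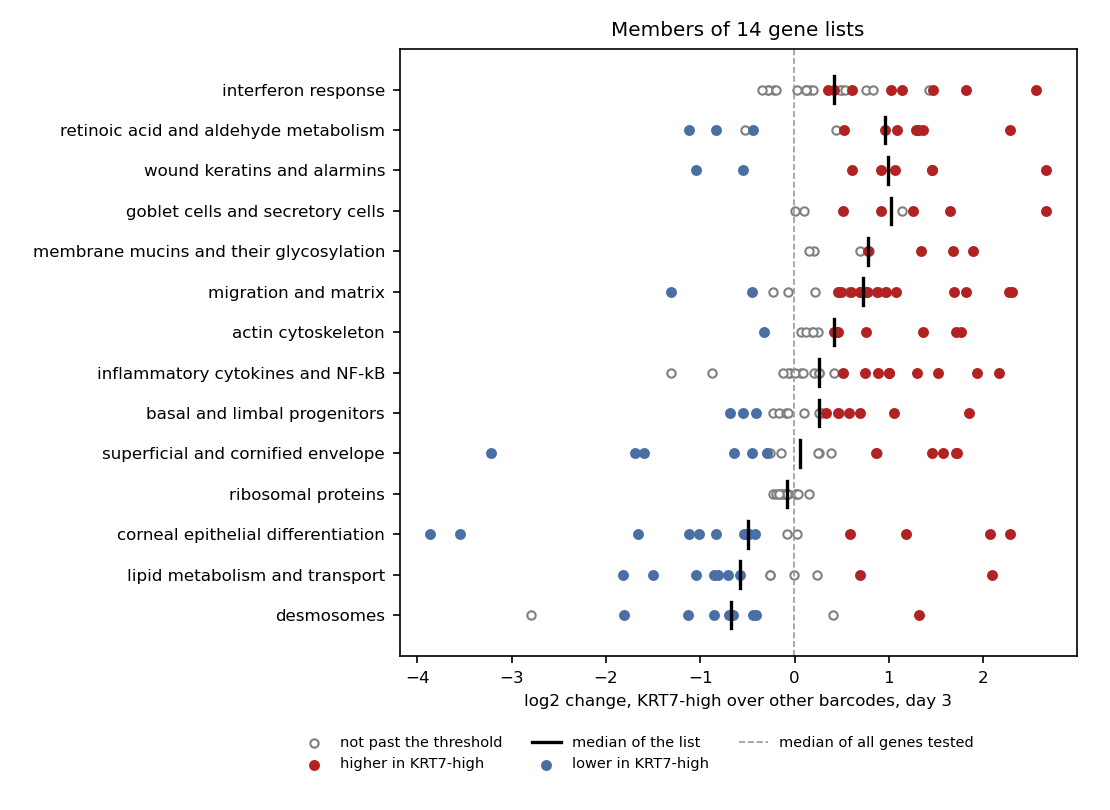
Log2 change of each tested member of 14 gene lists, KRT7-high over other barcodes at day 3. Filled points passed edgeR's adjusted threshold (red higher, blue lower), open points did not, black bars are list medians and the dashed line is the median of all genes tested; ribosomal proteins sit at -0.08, desmosomes at -0.68 and the wound keratins and alarmins at 0.99.

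By the rule for named genes, the highest genes, at an average log2 CPM of 5 or more, were S100P, FN1, ALDH1A3, KRT23, CCL20, AQP5, PLAAT2, PADI1, GPRC5A and KRT15. S100P, a calcium-binding protein of mucosal epithelia, had 332 and 720.1 CPM in KRT7-high barcodes, against 127 and 47.4 CPM in the others; the groups did not overlap, but the gap was 1.37 on the log2(CPM + 2) scale in replicate 1 and 3.87 in replicate 2. The acyltransferase PLAAT2 varied in the same way, with 541 and 956 CPM in KRT7-high barcodes, against 289.6 and 100.3 CPM in the others. With DESeq2 neither S100P nor PLAAT2 passed (DESeq2 adjusted p = 0.363 and 0.795). KRT23 (509 and 459.6 CPM in KRT7-high barcodes, against 107 and 97.4 CPM in the others) and the retinoic acid-induced receptor GPRC5A (149.5 and 153 CPM in KRT7-high barcodes, against 44.1 and 39.2 CPM in the others) were nearly equal between libraries. After KRT3 and KRT12 the lowest genes were TNNT3, MGARP, SCIN, CLEC7A, RB1, NBEA, GPR37 and KRT27. MGARP, a mitochondrial protein known from corneal epithelium, had 152 and 102 CPM in KRT7-high barcodes, against 643 and 635 CPM in the others (-2.33 ± 0.13). The cell cycle brake RB1 had 46.8 and 57.3 CPM in KRT7-high barcodes, against 207 and 187 CPM in the others (-1.93 ± 0.15). TNNT3, a troponin of fast skeletal muscle, had only 3 and 2 counts in KRT7-high barcodes (2.7 and 2.08 CPM), against 23.2 and 27.2 CPM in the others.

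The changes did not start at the threshold of 3 KRT7 counts. In barcodes with 0, 1, 2, 3, 4, 5 to 9, and 10 or more KRT7 counts, KRT12 had 15398, 3338, 1283, 1747, 1850.4, 657 and 398 CPM in replicate 1 and 15394, 3764, 1889, 1813, 1004, 496 and 134 CPM in replicate 2. Nearly all of the fall lay between barcodes with no KRT7 count and those with 2, so the barcodes just outside the threshold were already low in KRT12. KRT19 had 1434, 3659, 6652, 6036, 5946, 7791 and 9031 CPM over the same classes in replicate 1 and 1309, 3769.8, 5267, 7642, 5749.9, 7707 and 9237 CPM in replicate 2. ALDH1A3 had 109, 285, 416, 338, 650.1, 1186 and 1790.2 CPM in replicate 1 and 135, 379.8, 461, 545, 781, 911 and 1598 CPM in replicate 2, and in both libraries its largest values lay in the barcodes with the most KRT7. FN1 did not follow one course: barcodes with 10 or more KRT7 counts had 1306 CPM in replicate 1 and 289.8 CPM in replicate 2, over 30 and 24 barcodes. These values describe barcodes chosen by KRT7 and carry no test; barcodes with 10 or more KRT7 counts also had the highest median totals (5600 and 5600.5 counts).

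**Figure D3:**
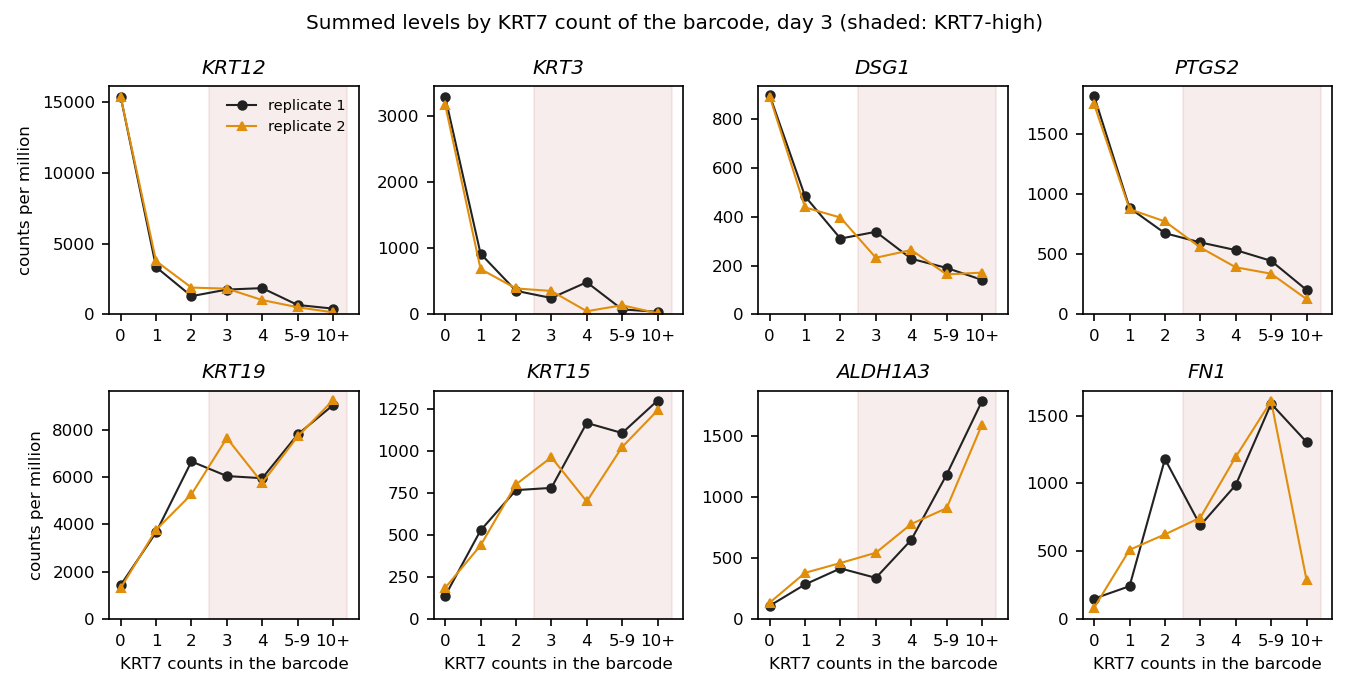
CPM of 8 genes summed over day 3 barcodes with the same KRT7 count, with replicate 1 as black circles and replicate 2 as orange triangles; the shaded range is KRT7-high. KRT12, KRT3, DSG1 and PTGS2 are highest and KRT19, KRT15 and ALDH1A3 lowest in barcodes with 0 KRT7 counts, with ups and downs between the middle classes, and FN1 differs between libraries in the last class.

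The members were not uniform. FN1 and KRT4 reached 3 or more counts in different members: 67 and 68 members had FN1 alone, 65 and 54 had KRT4 alone, 1 and 3 had both, and 114 and 105 had neither. This split was chosen after the values were seen, so it is a description with no test. Among the other day 3 barcodes, 60 and 55 had FN1 alone, 132 and 126 had KRT4 alone, and 0 and 6 had both. FN1 and KRT4 were thus mostly apart there as well, so the split was not particular to the members. In KRT7-high barcodes FN1 alone therefore made up 27.1% and 29.6%, against 7.07% and 6.56% of the others, and KRT4 alone 26.3% and 23.5%, against 15.55% and 15.04% of the others. Members with FN1 had lower median totals (3275 and 2996 counts) than members with KRT4 (6018 and 5553 counts).

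**Figure D4:**
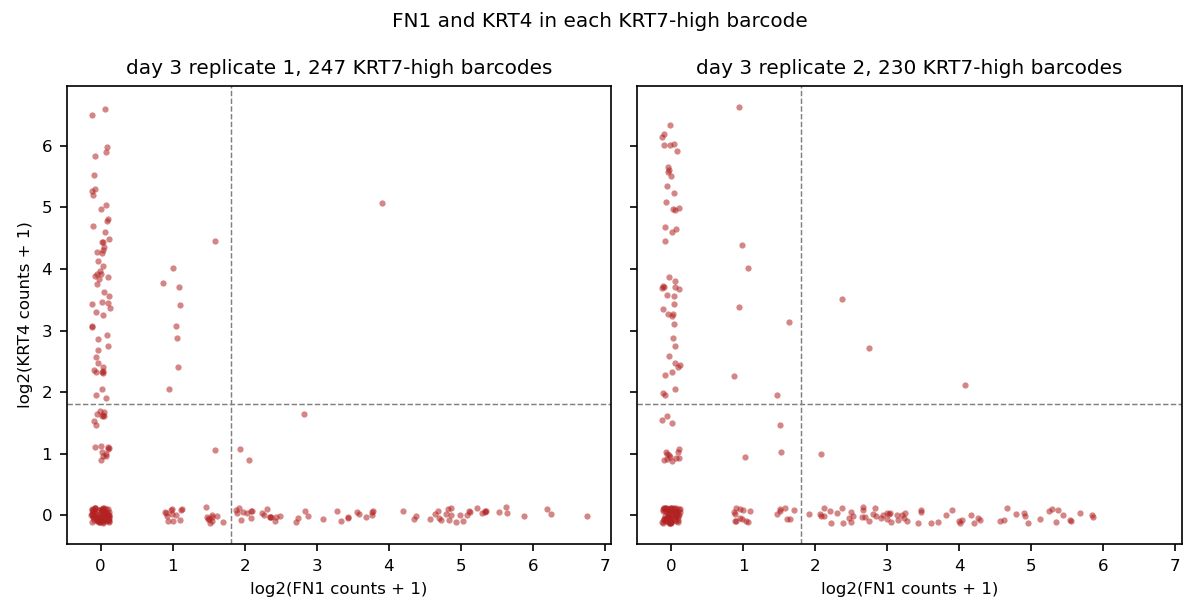
FN1 and KRT4 counts of each KRT7-high barcode on a log2(count + 1) scale, one panel per day 3 library, with points shifted by a small random amount so that equal values can be seen. Dashed lines separate fewer than 3 counts from 3 or more; most points lie along the axes, and 1 and 3 barcodes fall in the upper right field.

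The FN1 members and the KRT4 members differed in much besides. VIM had 1514 and 1215 CPM in FN1 members and 79.2 and 57.8 CPM in KRT4 members. The smooth muscle actin-binding protein TAGLN had 788 and 891 CPM in FN1 members and 2.55 and 0 CPM in KRT4 members. The hemidesmosome collagen COL17A1 had 587 and 639 CPM in FN1 members and 28.1 and 28.9 CPM in KRT4 members. KRT5 had 8302 and 7973 CPM in FN1 members and 8361 and 7789.7 CPM in KRT4 members, so the basal genes COL17A1 and KRT5 did not go together. S100A9 had 45142 and 47092 CPM in KRT4 members and 3115 and 2709 CPM in FN1 members. AQP5 had 3778 and 3572 CPM in KRT4 members and 205 and 112 CPM in FN1 members. The ammonium transporter RHCG had 342 and 302 CPM in KRT4 members, against 16.4 and 17.998 CPM in FN1 members, so the alarmin and both transport genes were the higher in KRT4 members. ALDH1A3 was present in both (542 and 837 CPM in FN1 members and 1374 and 1176 CPM in KRT4 members).

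FN1 members and KRT4 members had KRT19 and low KRT12 in common. KRT19 had 7687 and 7073 CPM in KRT7-high FN1 barcodes, against 5081 and 4035 CPM in FN1 barcodes with fewer than 3 KRT7 counts. In KRT4 barcodes it had 8466 and 9087 CPM where KRT7 was high, against 4511 and 4389 CPM where it was not. KRT12 had 295 and 495 CPM in KRT7-high FN1 barcodes, against 1541 and 2786 CPM in the other FN1 barcodes, and 825 and 418 CPM in KRT7-high KRT4 barcodes, against 2522 and 1975 CPM in the other KRT4 barcodes. In both kinds of barcode the KRT7-high ones were the lower in KRT12 in each library. ALDH1A3 was likewise higher where KRT7 was high, with 542 and 837 CPM against 206 and 241 CPM in FN1 barcodes and 1374 and 1176 CPM against 321 and 376 CPM in KRT4 barcodes. KRT15 had 1249 and 867 CPM in KRT7-high KRT4 barcodes, against 178 and 313 CPM in the other KRT4 barcodes, and 939.8 and 1305 CPM in KRT7-high FN1 barcodes, against 829 and 913 CPM in the other FN1 barcodes. VIM had 1514 and 1215 CPM in KRT7-high FN1 barcodes, against 1770.0 and 1107 CPM in the other FN1 barcodes, so the 2 libraries went in opposite directions. The members with neither gene held ISG15 at 585 and 432 CPM and KRT24 at 2123 and 1698 CPM, against 118 and 69.3 CPM of ISG15 and 4855 and 3597 CPM of KRT24 in other barcodes with neither gene.

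The same rule gave 41 KRT7-high barcodes at day 1, 19 and 22 per library, with median totals of 5439 and 5065.5 counts, against 3236 and 2903 counts in the other day 1 barcodes. Of 10877 genes, 459 were higher in them (4.22%) and 744 lower (6.84%), around a median of -0.40 over all genes; DESeq2 called 419 higher and 123 lower, around a median of -0.16, and at a threshold of 2 KRT7 counts 742 were higher and 559 lower. The balance of directions at day 1 thus depended on the tool and on the threshold. Without day 1 replicate 1 the 1203 calls fell to 630, and without replicate 2 to 775; thinning left 708. Of the 702 genes higher at day 3, 242 were also higher at day 1 (34.5%) and 22 lower; of the 452 lower at day 3, 159 were lower (35.2%) and 6 higher. The libraries of the 2 days are not shared. KRT12 had 1276 and 1314 CPM in KRT7-high barcodes of day 1, against 12833 and 13899 CPM in the others (-3.37 ± 0.13), close to the day 3 change. KRT19 (1.85 ± 0.11), ALDH1A3 (2.07 ± 0.13), KRT23 (2.00 ± 0.13), CLDN3 (2.41 ± 0.28) and KLK10 (2.42 ± 0.30) were higher and KRT3 (-3.33 ± 0.16) and DSG1 (-2.26 ± 0.21) lower at day 1 as at day 3.

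The difference itself, day 3 minus day 1, passed for 534 genes (4.91%), 354 with a higher (3.25%) and 180 with a lower (1.65%) change at day 3, around a median of 0.38. DESeq2 found 46 higher and 82 lower, the opposite balance, around a median of 0.13, and at a threshold of 2 KRT7 counts 236 were higher and 295 lower. Without any 1 of the 4 libraries between 176 and 335 genes passed. In the basal list 14 of 17 genes had a higher change at day 3 and 0 a lower one; at day 1 the list had 1 gene higher and 13 lower in KRT7-high barcodes. KRT14 had 239 and 284 CPM in KRT7-high barcodes of day 1, against 1242 and 1267 CPM in the others (-2.26 ± 0.17), and the difference in change was 1.71 ± 0.21 (edgeR adjusted p = 8.88e-14), and among the deeper barcodes alone it was 0.73 and did not pass (edgeR adjusted p = 0.0992). S100A2 had 700.2 and 495 CPM in KRT7-high barcodes of day 1, against 2423 and 1693 CPM in the others, so that it was lower there and higher at day 3 (difference 2.48 ± 0.18, edgeR adjusted p = 1.54e-41). CYP26A1 (difference 3.58 ± 0.68), DHRS3 (2.31 ± 0.42) and CCL20 (3.43 ± 0.48) likewise had a higher change at day 3. In the mucin list 4 of 8 genes had a lower change at day 3, among them MUC1 (difference -1.70 ± 0.19), which had 1028 and 608 CPM in KRT7-high barcodes of day 1, against 78.9 and 76.5 CPM in the others. TNNT3 was higher in KRT7-high barcodes at day 1 and lower at day 3: it had 718 and 1111 CPM in KRT7-high barcodes of day 1, against 427 and 415 CPM in the others (difference -4.46 ± 0.42, edgeR adjusted p = 2.65e-23). FN1 and TNC had 0 counts in the KRT7-high barcodes of both day 1 libraries and MMP13 was not listed in the day 1 tables, so their day 3 changes have no counterpart.

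**Figure D5:**
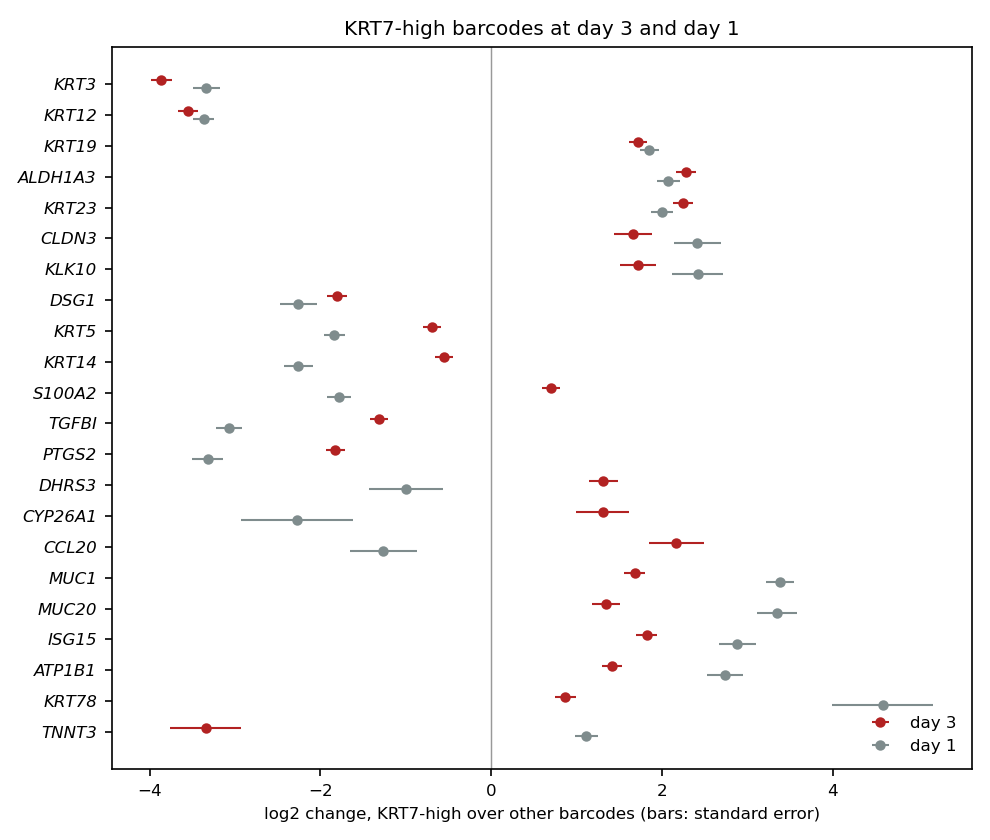
Log2 change of 22 genes, KRT7-high over other barcodes, at day 3 (red) and day 1 (grey), with bars for the standard error of the fit. KRT3, KRT12, KRT19, ALDH1A3 and KRT23 lie close together on both days, and S100A2, DHRS3, CYP26A1, CCL20 and TNNT3 lie on opposite sides of 0.

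Against the 83 KRT78-high barcodes of day 3 (3 or more KRT78 counts and fewer than 3 of KRT7; 48 and 35 per library), 856 of 10568 genes were higher in KRT7-high barcodes (8.1%) and 701 lower (6.63%), around a median of 0.16; DESeq2 found 490 higher and 637 lower. Without day 3 replicate 1 the number called was 676, and without replicate 2 it was 965. KRT78 marks superficial cells of stratified epithelia. The classes were not separate in KRT78: 17 and 24 KRT7-high barcodes also had 3 or more KRT78 counts and were kept on the KRT7-high side. KRT78 itself was higher in KRT7-high than in all other barcodes, by a log2 change of 0.54 to 1.17 over the main fit and its alternatives. Migration and matrix genes were higher in 23 of 25 cases and lower in 0, and basal genes higher in 14 of 17 and lower in 1. Superficial genes were lower in 10 of 17 cases and higher in 1. KRT78, which cut the comparison class, belongs to the superficial list, so the directions of superficial and basal genes here are no independent result. The highest genes, the transglutaminase TGM2 and the growth factor-binding protein IGFBP5, had 0 counts in KRT78-high barcodes of both libraries. Against a floor of 3 counts over those 2 libraries, TGM2 was at least 45.4-fold and IGFBP5 at least 21.1-fold higher, with 338 and 261 counts of TGM2 in KRT7-high barcodes. RARRES1 (at least 10.5-fold, but 126 and 12 counts in the 2 libraries), the adenosine receptor ADORA2B (at least 5.31-fold) and the sphingolipid desaturase DEGS1 (at least 4.93-fold) were 0 there as well. The lowest were KRT27, LY6G6C, KRT24, LGALSL and SCIN; KRT24 had 1238 and 1445 CPM in KRT7-high barcodes, against 20996 and 20174 CPM in KRT78-high ones. S100A9 had 21392 and 22909.8 CPM in KRT7-high barcodes, against 19837 and 17557 CPM in KRT78-high ones, a change of 0.24 ± 0.12 that did not pass (edgeR adjusted p = 0.167).

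Against the 887 KRT12-high barcodes of day 3 (10 or more KRT12 counts, fewer than 3 of KRT7 and KRT78), 1171 of 10568 genes were higher in KRT7-high barcodes (11.1%) and 999 lower (9.45%); DESeq2 found 816 higher and 392 lower, and scaling to library totals alone gave 1068 higher and 1218 lower, the opposite balance. Without day 3 replicate 1 the number called was 1266, and without replicate 2 it was 1256. The groups were cut by opposite keratins. AQP5 had 1942 and 1569 CPM in KRT7-high barcodes, against 12.1 and 15.3 CPM in KRT12-high ones (6.99 ± 0.25, edgeR adjusted p = 1.88e-44). RHCG (125 and 109 CPM in KRT7-high barcodes, against 0.525 and 1.58 CPM in KRT12-high ones), the arginine-cleaving enzyme ARG1 (6.51 ± 0.29) and CXCL6 (6.12 ± 0.17) followed, and DUOXA2, a maturation factor of hydrogen peroxide-making oxidases, had 12 and 11 counts in KRT7-high barcodes and 0 in KRT12-high ones, at least 13.1-fold higher. The lowest were ETNPPL, KRT3, TNNT3, MGARP and NBEA. ETNPPL, an ethanolamine phosphate lyase, had 0.875 and 0 CPM in KRT7-high barcodes, against 17.34 and 17.96 CPM in KRT12-high ones. COL17A1 was the lower in KRT7-high barcodes here (-0.63 ± 0.11) but the higher against KRT78-high barcodes (2.98 ± 0.25).

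The full-length isoform tables of day 3 shared 701 of 1096 and 679 of 1068 barcodes with the gene tables, among them 153 of 247 and 157 of 230 KRT7-high barcodes. Isoforms that match an annotated transcript in full (FSM in the authors' names) made up 82.4% and 81.9% of isoform counts in KRT7-high barcodes, against 82.1% and 81.0% in the others. New combinations of known splice sites (NIC) made up 1.73% and 1.83% in KRT7-high barcodes, against 1.83% and 1.95% in the others. Over 2031 genes with at least 20 isoform counts in every sum, 0 isoforms differed in share by 20 percentage points or more in the same direction in both libraries, while 2 genes did so in replicate 1 and 3 in replicate 2. These 2031 genes held only 2442 isoforms, and the median largest difference per gene was 0 points in both libraries. A gene with a single listed isoform cannot differ in share, so most of these genes could not show a difference. Isoforms were matched between the libraries by name, so an isoform named in 1 library alone could not differ in both. Among the matched isoforms of genes with more than a single isoform, no difference of that size was detectable in both libraries at this depth.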

How the data were processed

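Gene by barcode and isoform by barcode tables of 6 libraries were used, each holding the raw count values that the authors deposited, with 12185 to 13370 genes per table; a gene that a table does not list entered as 0. Per the submitters' processing notes Cell Ranger was used; its version, the aligner, genome build, annotation and barcode filter were not stated in these sources. All 7895 deposited barcodes were kept. Scrublet in scanpy 1.11.5 called 66 (0.836%) doublets, which were left out only as an alternative. The labels name no batch, and cells were not treated as replicates.

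Counts were summed per library over KRT7-high and all other barcodes, after KRT7 was removed. The 8 sums of days 1 and 3 were tested by the quasi-likelihood method of edgeR 4.0.16 under R 4.3.3 (TMM, filterByExpr), with library as a block and KRT7-high status per day, which left 2 residual degrees of freedom and a biological coefficient of variation of 0.0734; the estimated prior degrees of freedom were infinite, so genes of like abundance shared 1 quasi-likelihood spread. Uninjured libraries held fewer than 10 KRT7-high barcodes each and were not fitted. A second fit of 14 sums split off KRT78-high and KRT12-high barcodes, without the 3 keratins that cut the classes. KRT7-high and other sums come from the same library, so they are paired by construction; the correlation of their deviations was 0.324 at day 1 and 0.0489 at day 3. Replicate KRT7-high sums were compared by chi-square, which was 1.86 times its degrees of freedom at day 3 and 3.01 times at day 1, more than counting gives. P-values were Benjamini-Hochberg adjusted over all genes tested.

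The members and all 38 gene lists were chosen with earlier results of these data known. Named genes were up to 4 per list with the largest change past the threshold and the same direction in both libraries, the 10 highest and 10 lowest genes at day 3, 5 each way against the other classes, and 3 each way for the difference between days; the text leaves out some, in part because they are not reported here. Other genes that the text names (ALDH1A1, ALDH3A1, ALDH3A2, COL17A1, CRYAB, DSP, HLA-DRA, ITGB4, IVL, KRT14, KRT16, KRT17, KRT6A, KRT78, PAX6, PIGR, PTPRC, TAGLN, TGFBI, TGM1, TKT, TP63 and VIM) were chosen after their values were seen. Alternatives were DESeq2 1.42.0, scaling to totals, no filter, no block, each library left out, no doublets, thinning to 2000 counts, deeper barcodes alone, other KRT7 thresholds, barcodes without KRT7 as comparison, a test against a 1.5-fold change and day 3 alone. A value after ± is a standard error taken from the change and its F statistic. No sequences or coordinates are given, since the sources used here hold none.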

Additional observations from a re-analysis of the deposited data

Results flagged for a closer look

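A test of the difference itself, KRT7-high change at day 3 minus that at day 1, passed for 534 of 10877 genes (edgeR, adjusted p under 0.05). The day 1 sums hold 19 and 22 barcodes, and the median of all genes was 0.38 on the log2 scale; all differences below are log2 values. Of 35 genes described above that passed, 10 kept their call and direction in all 14 alternatives: S100A2 (2.48), CYP26A1 (3.58), CCL20 (3.43), DHRS3 (2.31), TGFBI (1.76), PTGS2 (1.497) and KRT5 (1.15) with a higher change at day 3, and TNNT3 (-4.46), MUC20 (-2.01) and MUC1 (-1.70) with a lower one.

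The others lost the call in at least 1 alternative. With a higher change at day 3, decorin (DCN) differed by 1.95, KRT14 by 1.71, MGARP by 1.61, TKT by 1.51, CXCL6 by 1.09, ALDH3A1 by 0.77 and KRT15 by 0.63. With a lower change at day 3, KRT78 differed by -3.71, TGM1 by -2.30, SLPI by -1.64, ATP1B1 by -1.32, S100P by -1.27, ISG15 by -1.06, DSG2 by -1.03, PI3 by -0.98, KRT17 by -0.94, PAX6 by -0.94, KRT4 by -0.85, IFITM1 by -0.84, KRT6A by -0.84, WFDC2 by -0.82, AQP5 by -0.59, ELF3 by -0.51, LGALS3 by -0.49 and S100A9 by -0.46.

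The 3 genes with the highest difference by the rule had 0 counts in the KRT7-high barcodes of both day 1 libraries, so no fold is given. DKK3, of the Dickkopf family, had 46 and 28 counts in KRT7-high barcodes of day 3, against 125 and 148 in the others (edgeR adjusted p of the difference = 3.11e-06). The EGF family ligand EPGN had 32 and 30 counts, against 162 and 152 (edgeR adjusted p = 1.69e-05), and the tetraspanin TSPAN15 had 14 and 13 counts, against 35 and 20 (edgeR adjusted p = 0.0112). The 3 lowest, SCD5 (edgeR adjusted p = 0.0318), XKRX (edgeR adjusted p = 0.00798) and RIMS1 (edgeR adjusted p = 0.01996), had 0 counts in the KRT7-high barcodes of day 3 and between 1 and 6 in those of each day 1 library; in day 3 replicate 2, SCD5 and XKRX also had 0 counts in the other barcodes.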

How the results depend on the processing

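All 97 genes tested by name at day 3 kept their direction in each of the 16 alternatives of that comparison that tested them. For genes named by rule, the direction without 1 day 3 library was fixed by their selection. In all of these alternatives 52 kept their call. The calls were lost mostly without 1 day 3 library (28 and 27 genes), with DESeq2 (31 of 95) and in a test against a 1.5-fold change (26). Leaving out 1 library at a time, the number of genes called ranged from 260 to 1455 at day 3 (1154 with all libraries), from 630 to 865 at day 1 (1203), from 176 to 335 for the difference between days (534), from 676 to 1577 against KRT78-high barcodes (1557) and from 1256 to 2120 against KRT12-high barcodes (2170); the lone library of a day was assumed to vary like the others. DESeq2 called 258 genes at day 3, 542 at day 1, 128 for the difference and 1208 against KRT12-high barcodes. Thinning each barcode to 2000 counts left 548 genes at day 3, 708 at day 1, 801 against KRT78-high and 1175 against KRT12-high barcodes. Barcodes at or above the median total of their library gave 267 genes for the difference and 1024 against KRT78-high barcodes, and the test against a 1.5-fold change gave 295 at day 3. Without the replicate block the difference between days had 300 genes, and the other four counts stayed within 1.5 times; a KRT7 threshold of 5 left 7 and 6 barcodes at day 1. The causes were not tested, except that thinning and leaving out libraries use fewer counts.

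The difference between days changed sign for S100P without day 1 replicate 1 (1.36) and without day 3 replicate 1 (0.0934), the lowest value without 1 library being -2.46. It changed sign for WFDC2 without day 1 replicate 1 (0.68), with a lowest value of -1.54. Among the deeper barcodes it changed sign for AQP5 (0.0775) and S100A9 (0.0690), and at 5 or more KRT7 counts for S100A9 (0.0322). The causes of these reversals were not tested. Against KRT78-high and KRT12-high barcodes, 5 of 5 and 8 of 9 tested named genes kept their call in the 11 alternatives.

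With 2 or more KRT7 counts the share of barcodes was 0.319% and 0.353% in uninjured libraries, 3.78% and 3.95% at day 1, and 30.1% and 30.3% at day 3; with 5 or more it was 0% and 0%, 0.472% and 0.474%, and 12.7% and 10.7%; with 1 or more after thinning it was 1.22% and 1.33%, 6.13% and 6.48%, and 34.8% and 34.3%. Depth limits genes with few counts in the KRT7-high sums, which at day 1 hold 109226 and 112357 counts.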
